A study of Mus musculus with 4 samples.

Results

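The nuclear-encoded subunits of the mitochondrial respiratory chain and ATP synthase were examined in mouse hair follicle stem cells (HFSCs) before and after long-term passaging. The set was taken by symbol: all genes named Nduf followed by a, b, c, s or v and a number, Sdha to Sdhd, every Uqcr gene, Cyc1, Cox4 to Cox8 genes and every Atp5 gene. In total, 85 of 24346 gene symbols met the rule, and the rule uses symbols only. Complex I was represented by 37 genes, complex II by 4, complex III by 9, complex IV by 18 and ATP synthase (complex V) by 17. The cells were prepared from C3H/HeN mice aged 4 weeks and cultured in M-CnT, a commercial serum-free medium. Polyadenylated RNA was sequenced in 2 libraries of cells at 10 passages (10p-HFSCs) and 2 libraries at 48 passages (48p-HFSCs), with no other treatment, and the number of donor animals is not given in the sources used here. The labels do not say whether the 2 libraries of a group came from separate cultures, thus the p-values given here measure only the spread between these libraries, which may be technical.

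The respiratory chain passes electrons from NADH (complex I) and succinate (complex II) through ubiquinone, complex III and cytochrome c to oxygen at complex IV. Complexes I, III and IV pump protons across the inner mitochondrial membrane, and ATP synthase uses the returning protons to make ATP. Most subunits are encoded in the nucleus and are small proteins with short mRNAs, and several subunits of complexes IV and V exist as isoforms from separate genes, some of them typical of muscle, testis or cells short of oxygen. The subunits encoded by the mitochondrial genome were not analysed here. Cultured stem cells of many kinds are known for a balance between glycolysis and respiration that shifts as they differentiate.

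Levels were deposited as FPKM (mapped fragments per kilobase of transcript, scaled to library size), a value already divided by transcript length. Of the members, 80 had at least 1 FPKM in at least 2 libraries and were tested among 11018 genes. The other 5 were isoforms known from other tissues. Cox4i2 (lung and low oxygen) was at 0, 0.130, 0 and 0.199 FPKM in 10p-HFSC replicates 1 and 2 and 48p-HFSC replicates 1 and 2, and every later list of 4 values follows this order. Cox6b2 (testis) was at 0.400 FPKM in 48p-HFSC replicate 2 and listed at 0 in the other libraries, and Cox7b2 (testis) was at 0.143, 0.20, 0 and 0 FPKM. Cox8b (heart and muscle) and Cox8c (testis) were listed at 0 in all 4 libraries. In contrast, 76 members were above 10 FPKM in every library.

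Several features of the libraries move with the comparison. The summed FPKM of 48p-HFSC replicate 2 was 1414950, as compared to 581516 to 719012 in the other 3 libraries. The library size used in scaling was estimated from the steps between low values, in which 1 read is worth more where that size is smaller. Against 10p-HFSC replicate 1 it was 71.6% in 10p-HFSC replicate 2, 82.9% in 48p-HFSC replicate 1 and 46.7% in 48p-HFSC replicate 2. The library with the largest sum thus also had the smallest size used in scaling. A small size of this kind raises both the step and the sum. It need not equal the mapped fragments, so sequencing depth is not shown by it. Of 8 markers of HFSCs and basal keratinocytes, the keratins Krt5 and Krt14 were at 1217 to 8156 FPKM, while Cd34, the defining marker of HFSCs, was at 0.0925 to 0.234 FPKM and Lhx2 at most at 0.0241 FPKM. The other four went in different directions: Itga6 was called higher in 48p-HFSCs (log2 difference 1.77) and Sox9 lower (-1.71), whereas Trp63 (0.67) and Krt15 (136, 82.6, 425 and 18.8 FPKM over the libraries) were not called. The summed level of 6 fibroblast markers was 353 and 388 FPKM in 10p-HFSCs as compared to 2.50 and 3.32 FPKM in 48p-HFSCs, carried by Vim and Col1a2, while Thy1 was at 0 in all libraries. The sum of 5 leukocyte markers was 0.641 and 0.694 FPKM in 10p-HFSCs as compared to 64.3 and 104 FPKM in 48p-HFSCs, nearly all of it from Cd74, while Cd3e and Tyrobp were at 0 in all libraries and Ptprc was under 0.1 FPKM. Lyz2, the remaining marker, was at 0.286, 0.479, 3.04 and 1.96 FPKM. It was called higher in 48p-HFSCs (log2 difference 1.33), but not after the correction for transcript length and GC content described below. The part of these differences in the results that follow was not tested. In bulk RNA, fewer cells of a type and less RNA per cell cannot be told apart.

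As a whole, the members took 3.08% and 3.25% of all FPKM in the 10p-HFSC libraries as compared to 3.52% and 3.75% in the 48p-HFSC libraries. Summed over the members, the 10p-HFSC libraries held 17930 and 23342 FPKM and the 48p-HFSC libraries 23461 and 52997 FPKM. Thus 48p-HFSC replicate 1 lay close to the higher of the 10p-HFSC libraries, and 48p-HFSC replicate 2 stood far above the other 3. Member by member, 48p-HFSC replicate 2 was the highest of the 4 libraries for 73 of 80 members (91.3%), as compared to 35.3% of all genes tested. It was at least 2 times 48p-HFSC replicate 1 for 45 members, whereas 10p-HFSC replicate 2 was at least 2 times replicate 1 for 2 members. Replicate 1 of the 48p-HFSCs was above both 10p-HFSC libraries for 39 members, between them for 17 and below both for 24.

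**Figure D1:**
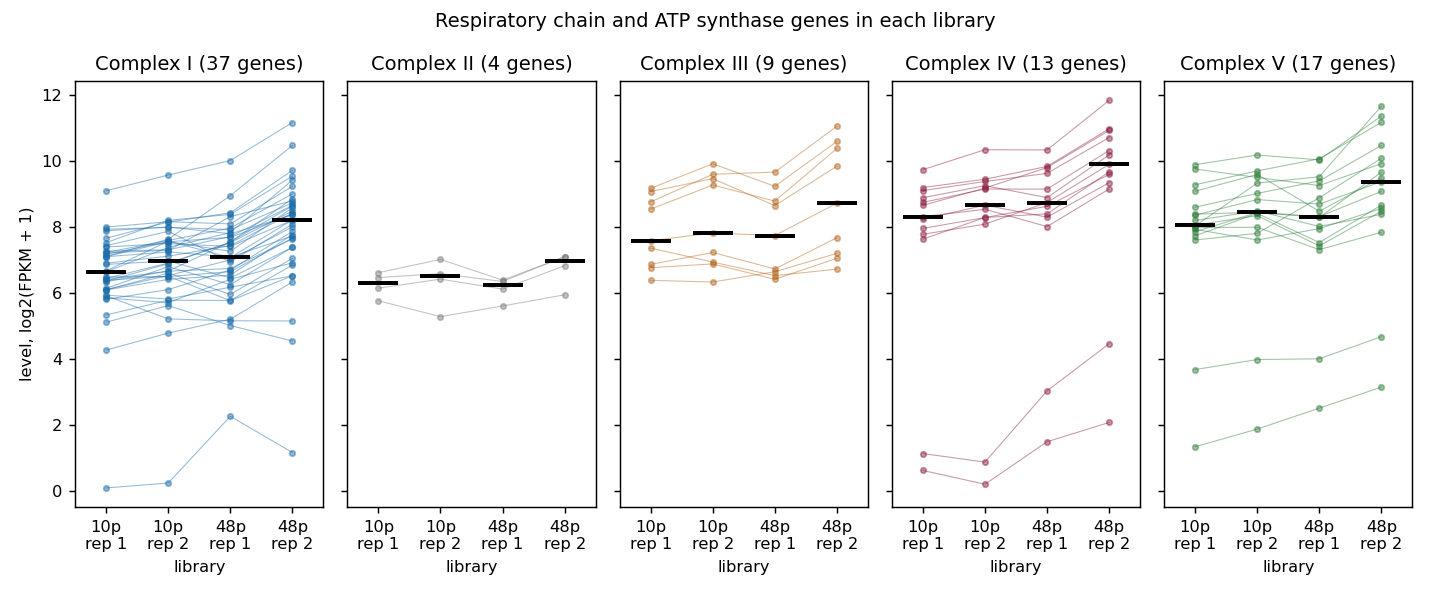
Level of each of the 80 tested genes, as log2(FPKM + 1) on the vertical axis, in the 4 libraries, with 1 panel per complex. Each thin line is 1 gene and each black bar the median of the panel. The median of 48p-HFSC replicate 2 is the highest of the 4 in every panel, while the complex II, III and V medians of 48p-HFSC replicate 1 sit within or below those of the 10p-HFSC libraries.

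The question of the comparison was how the transcripts of the respiratory chain differ after long-term passaging. Differences were tested with limma on log2(FPKM + 1) over all 11018 genes, with Benjamini-Hochberg adjustment, and a gene was called at an adjusted p-value under 0.05 with a difference of at least 1 on the log2 scale, i.e. 2-fold. Called higher in 48p-HFSCs were 5 of 80 members, as compared to 10.8% of all genes tested, and called lower were 0 of 80, as compared to 9.15%. In this fit the share called higher (6.25%) was thus below that of all genes, and so it was under quantile normalization (8.75%, as compared to 11.7%). With libraries rescaled to equal FPKM sums (TPM) it was above, at 7.5% as compared to 5.65%. At an adjusted p under 0.1 (limma) it was above too, at 16.3% as compared to 13.2%. The order of these shares therefore depended on the settings. At an unadjusted p under 0.05, 16 members were higher, as compared to 18.5% of all genes, and 0 were lower, as compared to 18.9%, by the same limma test, and the smallest unadjusted p among the 13 members with a lower mean was 0.107. Means of 67 members (83.8%) were higher in 48p-HFSCs, as compared to 48.5% of all genes, and the median log2 difference of the members was 0.66, as compared to -0.03 over all genes tested. Both values moved with single libraries: without 48p-HFSC replicate 2 the median was 0.18 with 47 members higher in mean, and without 48p-HFSC replicate 1 it was 1.13 with 76 higher. The libraries of the groups did not overlap for 43 members, 39 of them higher in 48p-HFSCs and 4 lower, whereas among all genes tested 31.7% were higher and 34.3% lower without overlap. Among the members were Cox7a1, Cox6a2 and Ndufa4l2, which met the filter on low values only through the 48p-HFSC libraries and so had to be higher there. Without these 3, 2 of 77 members were called, 13 had an unadjusted p under 0.05, 64 were higher in mean with a median of 0.58, and 36 were higher without overlap. The differences depended on single libraries, and the count of calls depended on the filter. With no filter on low values it was 0 of 83, as compared to 4.89% of all genes called higher.

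Transcript length was examined next, since most members are short. The longest protein-coding transcript of the members had a median of 913 bases, as compared to 3011 bases over all genes tested, and it was under 1500 bases for 72.5% of members and 16.4% of all genes. Replicates of the same group differed along this axis. Among all 278 tested genes under 700 bases, the median log2 difference of replicate 2 minus replicate 1 was 0.46 in 10p-HFSCs and 1.08 in 48p-HFSCs, whereas among 5510 genes of 3000 bases and over it was -0.13 and -0.19. Short transcripts were therefore higher in replicate 2 of both groups, and more so in 48p-HFSCs. Members were also higher in replicate 2, with a median replicate difference of 0.32 in 10p-HFSCs and 1.04 in 48p-HFSCs. It was positive in 70 and 77 of 80 members. Within 48p-HFSCs, members exceeded all genes of similar length. Their median was 1.04 as compared to 0.54 from 700 to under 1500 bases. From 1500 to under 3000 bases it was 0.67 as compared to 0.15. Within 10p-HFSCs these classes lay near all genes (0.33 as compared to 0.28, and 0.06 as compared to 0.08). The cause of the excess in 48p-HFSCs was not tested. Across genes, which are not independent replicates, Spearman's rho between length and the replicate difference was -0.52 in 10p-HFSCs and -0.40 in 48p-HFSCs for all genes, and -0.31 and -0.46 for the members.

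The difference between 48p- and 10p-HFSCs followed length too. Its median over all genes was 0.96 under 700 bases, 0.39 from 700 to under 1500 bases, 0.07 from 1500 to under 3000 bases and -0.23 for longer genes. Among members the corresponding medians were 1.05 (25 genes), 0.71 (33 genes), 0.28 (19 genes) and 0.20 (3 genes). By the longest transcript, members of the shortest class thus lay near all genes of that class, and those of the next classes somewhat above theirs. By the median transcript of each gene, members under 700 bases (40 genes) had a median of 1.08, as compared to 0.42 over all 928 genes of that class. The nearness of the shortest class therefore depended on the length used. When each library was corrected for length and GC content by a smooth curve over all genes, the median of the members fell from 0.66 to 0.26 and the number with a higher mean from 67 to 49 of 80 (61.3%, as compared to 49.3% of all genes). After this correction 4 members were called higher, as compared to 11.9% of all genes, and 0 lower, as compared to 9.96%. The passage number and the length trend cannot be told apart for a gene that follows the trend, since the size of the trend differed between the libraries of 1 group as well as between groups.

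**Figure D2:**
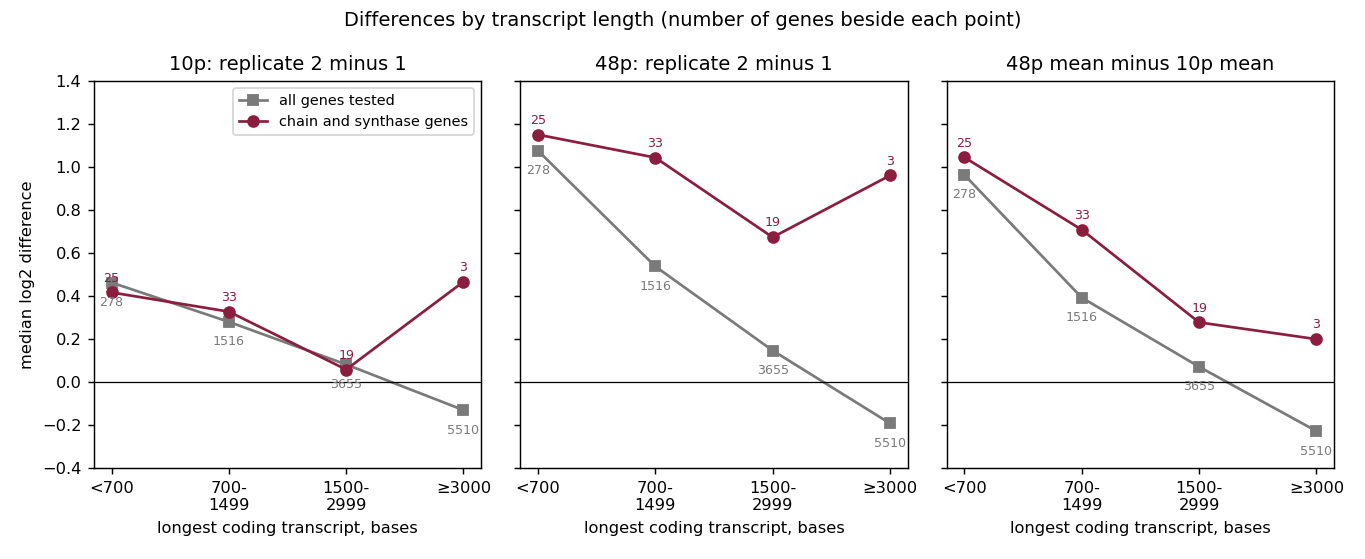
Median log2 difference on the vertical axis by length of the longest protein-coding transcript, for all genes tested (grey squares) and for the chain and synthase genes (red circles). The panels plot replicate 2 minus replicate 1 within 10p-HFSCs, the same within 48p-HFSCs, and the 48p mean minus the 10p mean. The number beside each point is its number of genes, and the last red point of each panel rests on 3 genes. Grey values fall with length in all 3 panels, from 1.08 to -0.19 within 48p-HFSCs.

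Complex I, the NADH dehydrogenase, consists of core subunits that carry the flavin and iron-sulphur clusters and a large outer layer of accessory subunits. Of its 37 genes, the mean was higher in 48p-HFSCs for 33, and for 25 after the length and GC correction, as compared to 48.5% and 49.3% of all genes. Called higher were 3 and lower 0, as compared to 10.8% and 9.15% of all genes tested. The median log2 difference was 0.75 (0.32 after the length and GC correction, 0.30 without 48p-HFSC replicate 2 and 1.17 without 48p-HFSC replicate 1). Without Ndufa4l2, which met the filter only through the 48p-HFSC libraries, 2 of 36 were called higher, with a median of 0.73. The 7 core subunits had a median of 0.56 before and -0.02 after the correction, as compared to 0.90 and 0.33 for the 29 accessory subunits. Core transcripts were longer, with a median of 1623 bases as compared to 861 bases.

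Ndufa3, a small accessory subunit of the membrane arm (chr7:3617373-3620327, plus strand, mm10), had the largest difference of complex I. Its level was 137, 196, 493 and 1417 FPKM. Both 48p-HFSC libraries were above both 10p-HFSC libraries, and replicate 2 exceeded replicate 1 in each group. The log2 difference was 2.34 ± 0.59 (SE, n = 2 and 2; adjusted p = 0.043, limma), and after the length and GC correction it was 1.65 (adjusted p = 0.018). Tfpt, which overlaps Ndufa3 on the other strand, was at 6.68, 7.57, 11.5 and 20.0 FPKM, and whether the counting used strand is not given in the sources used here.

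Ndufb9, an accessory subunit with an LYR motif, was at 147, 156, 316 and 441 FPKM, again with both 48p-HFSC libraries higher and a gap between the groups wider than that between replicates. Its log2 difference was 1.30 ± 0.35 (SE; adjusted p = 0.0496, limma), at the edge of the threshold, and 0.60 (adjusted p = 0.14) after correction. Just outside the threshold was Ndufb3, another accessory subunit, at 80.2, 100, 185 and 397 FPKM, with a difference of 1.59 (adjusted p = 0.053) and 1.02 after correction (adjusted p = 0.037). Both 48p-HFSC libraries were again above both 10p-HFSC libraries.

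Ndufa4 (chr6:11900292-11907497), named for complex I but since assigned to complex IV, had the highest level among the complex I symbols in every library, at 545, 759, 1030 and 2288 FPKM. Its log2 difference of 1.25 ± 0.64 did not pass the test (adjusted p = 0.21). Ndufa4l2, its paralogue known as a target of the hypoxia response, was at 0.0642, 0.179, 3.79 and 1.24 FPKM. It was the only called member with replicate 1 of the 48p-HFSCs above replicate 2. The difference was 1.55 ± 0.39 (adjusted p = 0.042) on the log2(FPKM + 1) scale, which understates the change of low genes, and 0.98 (adjusted p = 0.26) after correction. Ndufa4l2 remained under 0.4% of the summed FPKM of the pair in all libraries, and Shmt2, which overlaps it on the other strand, was at 74.4 to 88.3 FPKM.

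At the other end, Ndufs5, an accessory subunit of the intermembrane side, was at 33.6, 48.0, 31.2 and 22.3 FPKM, with a log2 difference of -0.59 ± 0.31 (adjusted p = 0.22). It was among the 7 members for which 48p-HFSC replicate 2 was not the highest library, and here it was the lowest. Ndufs1, the largest core subunit with iron-sulphur clusters, was at 59.2, 36.0, 34.6 and 34.5 FPKM (log2 difference -0.41, adjusted p = 0.38). Its libraries were separated by a narrow gap, smaller than that between the 10p-HFSC replicates. Neither gene passed the test.

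Complex II, succinate dehydrogenase, is the smallest complex, is encoded wholly in the nucleus and also serves the tricarboxylic acid cycle. None of its 4 genes was called, as compared to 10.8% of all genes called higher and 9.15% lower. The groups overlapped for all 4, and the median log2 difference was 0.20 (0.01 after correction). Sdha, the flavoprotein, was at 53.2, 37.8, 47.6 and 60.5 FPKM, with a log2 difference of 0.25 ± 0.29. Sdhb, the iron-sulphur subunit, was at 69.6, 84.4, 68.3 and 112 FPKM (0.19 ± 0.34). Both catalytic subunits thus had 48p-HFSC replicate 1 inside or just under the range of the 10p-HFSCs. The membrane anchors Sdhc (87.3, 94.8, 80.3 and 136 FPKM; 0.20 ± 0.34) and Sdhd (96.8, 128, 82.6 and 135 FPKM; -0.08 ± 0.36) lay below both 10p-HFSC libraries in 48p-HFSC replicate 1 and above both in replicate 2, with adjusted p-values of 0.57 to 0.89 over the 4 genes.

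In complex III, which transfers electrons from ubiquinol to cytochrome c, 0 of 9 genes were called in either direction (0 at an unadjusted p under 0.05 as well). Among all genes tested, 10.8% were called higher and 9.15% lower. A higher mean was found for 6 of the 9, and for 2 after the length and GC correction. The median log2 difference was 0.37, and it turned to -0.24 after the length and GC correction. The short accessory subunits were the most abundant. Uqcr11 was at 574, 962, 599 and 1539 FPKM (log2 difference 0.37 ± 0.67), and Uqcrq at 431, 771, 807 and 2119 FPKM (1.18 ± 0.69, adjusted p = 0.26), the largest difference of the complex. In both, 10p-HFSC replicate 2 lay closer to 48p-HFSC replicate 1 than to its own replicate. Cytochrome c1 (Cyc1) was at 115, 148, 105 and 203 FPKM and the Rieske protein (Uqcrfs1) at 108, 117, 84.1 and 131 FPKM, overlapping in both cases. Uqcrc2, a core protein on the matrix side, was the complex III gene without overlap on the lower side, at 163, 121, 90.9 and 104 FPKM (-0.52 ± 0.30, adjusted p = 0.26).

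Complex IV, cytochrome c oxidase, had a median log2 difference of 1.05 over 13 tested genes, the largest of the 5 complexes as deposited, whereas under quantile normalization complex I (0.42) was above complex IV (0.33). The median was 0.44 without 48p-HFSC replicate 2 and 1.66 without 48p-HFSC replicate 1. All 11 genes that did not enter the test through the 48p-HFSC libraries alone were higher in mean, as compared to 48.5% of all genes, with a median of 0.99. After the length and GC correction 8 of these were higher in mean, as compared to 49.3% of all genes, with a median of 0.30. The longest transcripts of complex IV had a median of 680 bases and those of complex III 1363 bases, while by the median transcript of each gene the values were 625 and 533 bases. Cox8a, the complex IV gene with the highest mean level, was at 851, 1293, 1287 and 3643 FPKM (1.05 ± 0.79, adjusted p = 0.37), and Cox6b1, a subunit facing the intermembrane space, at 584, 695, 910 and 2009 FPKM (1.09 ± 0.62, adjusted p = 0.25). In both, 48p-HFSC replicate 2 was over 2 times replicate 1, and neither passed the test. Cox4i1, a subunit that binds adenine nucleotides, was at 471, 607, 472 and 1160 FPKM (0.47 ± 0.59), and only its value in 48p-HFSC replicate 2 left the range of the 10p-HFSCs.

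The tissue-restricted isoforms of complex IV were low, and 2 of the 7 entered the test. Cox7a1, the heart and muscle isoform of subunit VIIa (chr7:30184144-30186078, plus strand), was at 1.19, 0.830, 7.17 and 21.0 FPKM. The groups were far apart, and 48p-HFSC replicate 2 was highest. The log2 difference was 2.74 ± 0.50 (adjusted p = 0.016), the largest of all 80 members, and 1.95 after correction (adjusted p = 0.018). Cox6a2, the heart and muscle isoform of subunit VIa, was at 0.535, 0.149, 1.81 and 3.21 FPKM (1.37 ± 0.31, adjusted p = 0.030), and at 0.71 (adjusted p = 0.21) after correction. A gene at such levels could enter the test only by being high in 48p-HFSCs, so these calls are no support for a direction of the set.

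Muscle markers were examined beside these isoforms. The sum over 6 of them was 36.0 and 41.0 FPKM in 10p-HFSCs as compared to 74.4 and 49.9 FPKM in 48p-HFSCs, most of it Tnnt3. Desmin (Des) was at 0.649, 0.930, 10.8 and 10.7 FPKM, while the defining markers Ckm, Actn2, Myh1 and Myh4 were under 0.5 FPKM in all libraries. Desmin rose with Cox7a1 across the groups, and its part in that result was not tested.

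**Figure D3:**
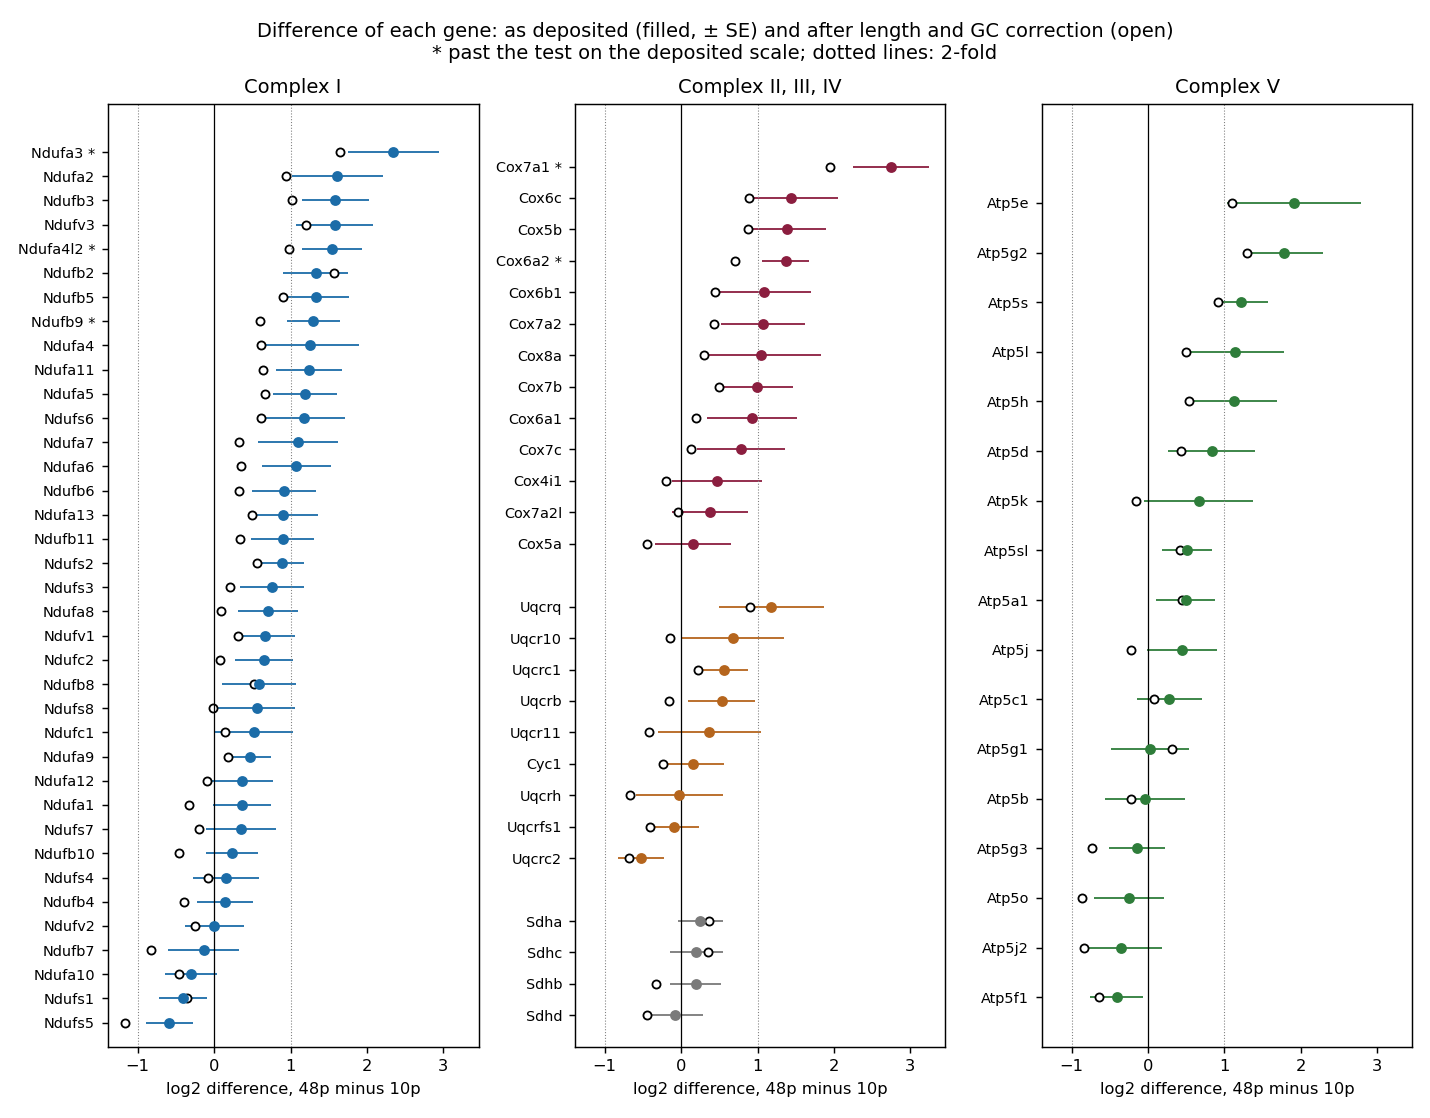
Log2 difference of 48p- minus 10p-HFSCs for each of the 80 tested genes, on the deposited scale (filled circles with SE, 2 libraries per group) and after the length and GC correction (open circles). Stars mark the 5 genes past the test on the deposited scale and dotted lines mark 2-fold. Open circles lie left of filled ones for most short genes, with complex III turning from a median of 0.37 to -0.24.

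ATP synthase is built from a catalytic F1 head, a peripheral stalk, a membrane part and a ring of c subunits that turns as protons pass. Of 17 genes, 12 had a higher mean (10 after the length and GC correction), and 0 were called, as compared to 10.8% of all genes called higher and 9.15% lower. The median log2 difference was 0.49 (0.31 after correction). In the catalytic head, the beta subunit Atp5b was at 861, 722, 608 and 965 FPKM (-0.04 ± 0.52), whereas the small epsilon subunit Atp5e was at 260, 641, 733 and 3231 FPKM (1.91 ± 0.88, adjusted p = 0.17). The beta subunit overlapped between groups, whereas Atp5e was separated, with replicate 2 over 2 times replicate 1 in both groups. Atp5k, the short e subunit of the membrane part, was at 944, 1156, 1044 and 2619 FPKM (0.66 ± 0.72), and turned to -0.16 after correction.

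The 4 peripheral stalk genes had a median of 0.10 before and -0.44 after correction. Atp5f1, the b subunit, was at 251, 253, 157 and 228 FPKM, without overlap on the lower side (-0.41 ± 0.35, adjusted p = 0.42). Atp5h, the d subunit, was at 386, 516, 671 and 1413 FPKM (1.12 ± 0.56, adjusted p = 0.20). The stalk thus held values in both directions, and neither gene passed the test. Atp5s and Atp5sl carry synthase names but are not counted as subunits. Both were low (at most 24.6 FPKM), without overlap and higher in 48p-HFSCs, with log2 differences of 1.22 (adjusted p = 0.060) and 0.51 (adjusted p = 0.30).

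The c ring was compared within each library. Atp5g1, Atp5g2 and Atp5g3 encode the same mature c subunit with different import sequences, so their transcripts can be set against each other in each library. Atp5g2 took 27.8% and 24.3% of their summed FPKM in 10p-HFSCs (26.0% ± 2.48, SD, n = 2), and 51.7% and 59.5% in 48p-HFSCs (55.6% ± 5.51). Atp5g3 took 41.9% and 38.9% in 10p-HFSCs as compared to 28.2% and 18.3% in 48p-HFSCs, and Atp5g1 30.3% and 36.9% as compared to 20.1% and 22.2%. Hence the most abundant of the 3 was Atp5g3 in both 10p-HFSC libraries and Atp5g2 in both 48p-HFSC libraries, with no overlap for any of the 3 shares. The exact permutation test of each share gave p = 0.333 (two-sided), the smallest that 2 against 2 libraries allow.

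By level, Atp5g2 was at 193, 223, 471 and 1080 FPKM, Atp5g3 at 292, 357, 257 and 332 FPKM, and Atp5g1 at 211, 339, 183 and 404 FPKM. Only Atp5g2 was separated between groups. Its log2 difference was 1.78 ± 0.51 (adjusted p = 0.060), outside the threshold, and after the length and GC correction it was 1.30 (adjusted p = 0.032). Atp5g2 and Atp5g3 have longest transcripts of similar length, 753 and 723 bases. Their log2 differences were 1.78 and -0.14 as deposited, and 1.30 and -0.73 after correction. Reads of Atp5g2 and of Atp5g1 can match other annotated transcripts (1 and 3 genes, respectively, at 97% identity over the length of a read), and how such reads were assigned is uncertain.

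**Figure D4:**
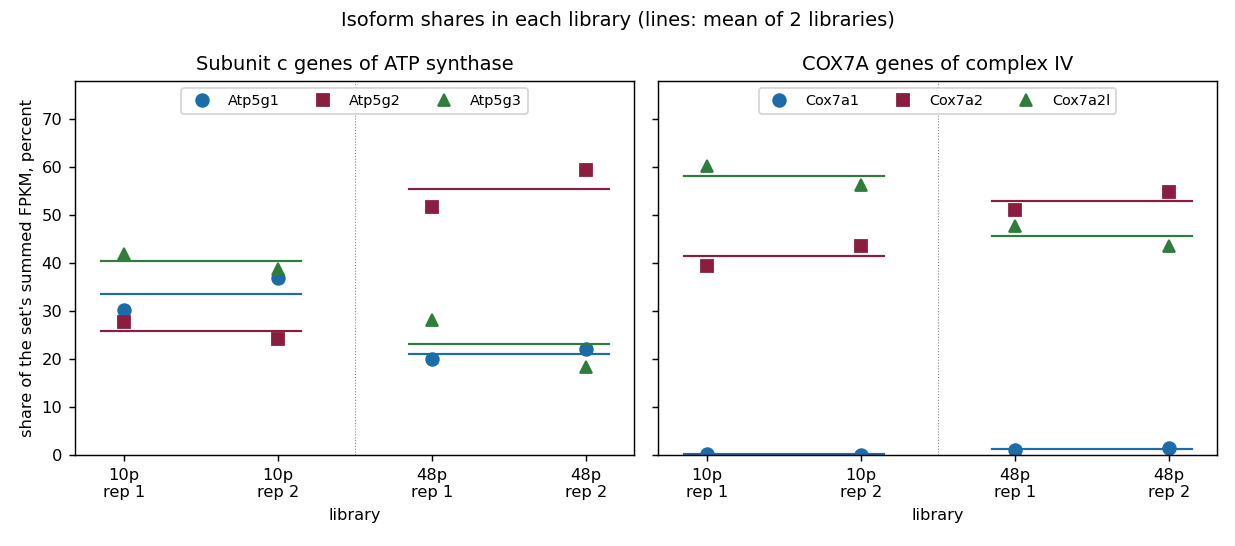
Share of each gene in the summed FPKM of its isoform set, in percent on the vertical axis, in the 4 libraries, for the c subunit genes and for the COX7A genes. Points are libraries and lines are means of 2. Atp5g2 rises from 24.3 to 27.8% in 10p-HFSCs to 51.7 to 59.5% in 48p-HFSCs.

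Promoter sequences were examined because factors that control many respiratory genes are known to bind near their start sites: NRF-1, ETS factors such as GABP, and YY1. RefSeq promoters (250 bases before to 50 bases after the start, GRCm38.p6) were matched for 69 of the 85 members. The NRF-1 letters GCGCATGC, on either strand, were present in 10 of 69 member promoters (14.5%), as compared to 3.05% of 27025 gene symbols with a promoter. The YY1 letters AAGATGGC were present in 11 (15.9%, as compared to 3.19%), and the ETS letters CCGGAAGT in 5 (7.25%, as compared to 4.31%). At least 1 of these motifs was found in 25 members (36.2%, as compared to 9.91%). A match is a description of the letters in this window and not a binding site. Atp5g2 held the NRF-1 letters and Atp5g3 none of the 3 motifs, while Ndufa3 held the YY1 letters just after its start. None of the 3 motifs was found for Atp5g1, for Ndufb3 or for Cox7a1, the member with the largest difference, and no promoter was matched for Ndufb9. Cox6a2 and Ndufa4l2 were not among the members with a motif, whether or not a promoter was matched for them. The stretches of the c subunit genes whose shares moved in opposite directions, and the short stretch of the complex I gene with the largest difference, are shown 5′ to 3′ on the strand of the gene, with motif letters in capitals. Atp5g2 covers chr15:102671048-102671297 (minus strand), Atp5g3 chr2:73911327-73911576 (minus strand) and Ndufa3 chr7:3617384-3617413 (plus strand). In Atp5g2 the capitals are 2 overlapping NRF-1 matches, 1 on each strand.
Atp5g2: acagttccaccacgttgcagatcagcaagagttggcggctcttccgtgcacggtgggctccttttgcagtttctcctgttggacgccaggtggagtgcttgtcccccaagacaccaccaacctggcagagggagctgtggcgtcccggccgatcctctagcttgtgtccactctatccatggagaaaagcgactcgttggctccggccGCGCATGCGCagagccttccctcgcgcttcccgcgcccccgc
Atp5g3: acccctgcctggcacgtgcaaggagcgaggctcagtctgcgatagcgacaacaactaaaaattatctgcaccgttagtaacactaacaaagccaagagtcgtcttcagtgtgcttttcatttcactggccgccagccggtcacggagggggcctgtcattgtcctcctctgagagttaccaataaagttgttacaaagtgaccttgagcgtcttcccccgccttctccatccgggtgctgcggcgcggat
Ndufa3: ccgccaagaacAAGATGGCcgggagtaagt

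The isoform shares of complex IV were compared in the same way. In the COX7A set, Cox7a2 took 39.6% and 43.5% in 10p-HFSCs as compared to 51.2% and 54.9% in 48p-HFSCs, whereas Cox7a2l, which helps to join complexes III and IV, took 60.2% and 56.4% as compared to 47.7% and 43.7%. The order of these genes was therefore exchanged between the groups, with no overlap (exact permutation p = 0.333, two-sided). Cox7a2 is the shorter of them, at 659 bases as compared to 1129 bases. Cox7a1 took at most 0.24% of the set in 10p-HFSCs and at least 1.09% in 48p-HFSCs. In the other sets the ubiquitous isoform took over 99% in every library, namely Cox4i1, Cox6a1, Cox6b1, Cox7b, Cox8a and Ndufa4.

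The balance among complexes was also taken within each library. Complex IV made up 25.4% and 26.0% of the members' summed FPKM at 10 passages as compared to 28.3% and 29.2% in 48p-HFSCs, and complex I 25.2% and 24.5% as compared to 28.5% and 26.7%. The shares of the other complexes were lower in both 48p-HFSC libraries. Complex V had 33.3% and 32.0% as compared to 29.9% and 30.3%, complex III 14.3% and 16.0% as compared to 12.1% and 13.0%, and complex II 1.71% and 1.48% as compared to 1.19% and 0.839%. No complex overlapped between groups in its share. Among all genes tested, 31.7% were higher and 34.3% lower without overlap, but these are levels of single genes and no background for such shares. Ndufa4, since assigned to complex IV, was counted with complex I here, and the shares without it were not taken. The shares of a library add up to the whole, so a rise in some requires a fall in others. The longest transcripts had a median of 680 bases in complex IV and 2066 bases in complex II, and the part of length in these shares was not tested.

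**Figure D5:**
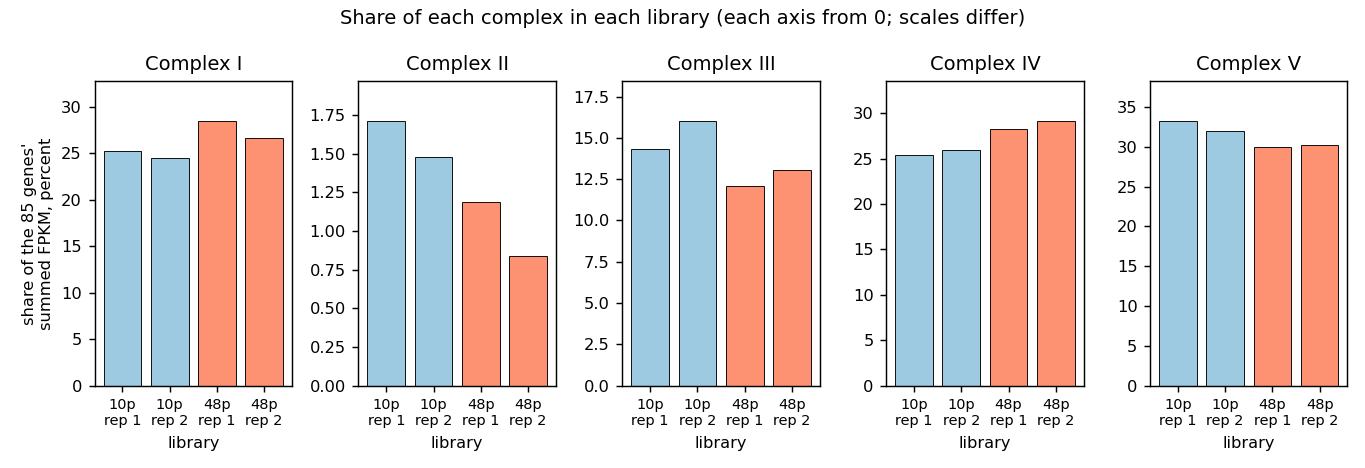
Share of each complex in the summed FPKM of the 85 genes, in percent, for the 2 libraries of 10p-HFSCs (blue) and the 2 of 48p-HFSCs (red). Each axis starts at 0 and scales differ between panels. With Ndufa4 counted in complex I, complexes I and IV are higher and complexes II, III and V lower in both 48p-HFSC libraries.

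The order of the members by level was largely kept. Spearman's rho across the 80 members was 0.98 between the replicates of each group (0.979 in 10p-HFSCs and 0.983 in 48p-HFSCs), and 0.866 to 0.927 between libraries of different groups. These points are genes that share libraries, and the values are given as a description.

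Genes that surround the chain were compared from lists. Of 43 tested assembly factors, 6 were called higher and 1 lower, as compared to 10.8% and 9.15% of all genes tested. Their median log2 difference was 0.36 (0.31 after correction). Coa3, an assembly factor that promotes translation of the first complex IV subunit, was at 18.5, 26.6, 244 and 342 FPKM (3.65 ± 0.32, adjusted p = 0.0016). Uqcc3, a complex III factor, was at 0.544, 1.09, 15.8 and 18.5 FPKM (3.33 ± 0.29, adjusted p = 0.0016). In both the 48p-HFSC libraries lay close together and far above the 10p-HFSC libraries. Ndufaf3 (complex I; 1.71, adjusted p = 0.032) and Sdhaf3 (complex II; 12.2, 13.3, 28.0 and 51.4 FPKM, adjusted p = 0.032) were also higher. Cox16, another complex IV factor, was lower, at 24.5, 37.3, 9.90 and 8.48 FPKM (-1.62 ± 0.30, adjusted p = 0.017).

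Of 23 tested regulators of mitochondrial biogenesis, 0 were called higher and 4 lower, as compared to 10.8% and 9.15% of all genes tested. Their median was -0.25 (-0.16 after correction). Ppargc1a, the coactivator that drives mitochondrial biogenesis, was at 22.3, 18.2, 0.198 and 0.0167 FPKM (-4.26 ± 0.28, adjusted p = 0.00092). It was readily detected in both 10p-HFSC libraries and close to 0 in both 48p-HFSC libraries. Tfb2m, a mitochondrial transcription factor, was at 23.1, 24.4, 7.98 and 8.72 FPKM (-1.41, adjusted p = 0.015), and Peo1, the mitochondrial DNA helicase, at 21.4, 22.2, 9.07 and 3.38 FPKM (-1.78, adjusted p = 0.038). Lrpprc, which stabilizes mitochondrial mRNA, was at 29.9, 21.3, 12.3 and 9.98 FPKM (-1.12, adjusted p = 0.045), and at -0.85 after correction. For Nrf1, Gabpa, Tfam and Yy1 the log2 differences were -0.36, -0.61, -0.25 and 0.64, and none passed the test.

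Among 14 tested partners of the chain outside the rule, 1 was called higher and 1 lower, as compared to 10.8% and 9.15% of all genes. Slc25a4, an adenine nucleotide carrier of heart and muscle, was called lower, at 288, 326, 7.89 and 11.9 FPKM (-4.84 ± 0.29, adjusted p = 0.00092). Higd2a, a complex IV and supercomplex factor, was called higher (1.44 ± 0.36, adjusted p = 0.041). Its call was lost after the length and GC correction (0.75, adjusted p = 0.063) and on the TPM scale (0.86, adjusted p = 0.10). The ubiquitous carrier Slc25a5 was at 812, 759, 367 and 523 FPKM (-0.84, adjusted p = 0.23), and it was called lower after the correction (-1.20, adjusted p = 0.037) and on the TPM scale (adjusted p = 0.0044). Cytochrome c (Cycs) was at 83.7, 105, 70.6 and 137 FPKM. The muscle carrier was thus lower while the muscle isoforms Cox7a1 and Cox6a2 were higher in the same libraries. Of 23 tested genes of pyruvate dehydrogenase and the tricarboxylic acid cycle, 1 was called higher and 0 lower, below the 10.8% and 9.15% of all genes. Their median was 0.13. The called gene was Pdp1, the phosphatase that activates pyruvate dehydrogenase, at 2.38, 1.97, 11.2 and 8.36 FPKM (1.75 ± 0.29, adjusted p = 0.012). Fumarate hydratase, citrate synthase and malate dehydrogenase were not called.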

How the data were processed

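RNA from 2 libraries of 10p-HFSCs and 2 of 48p-HFSCs was sequenced by the study with a stranded mRNA kit in single-end mode and mapped to mm10. The submitters' processing notes name TopHat2 2.1.1, Bowtie2 2.2.8, SAMtools 0.1.18 and Cuffdiff 2.2.1, while the study's methods give other versions of some tools, and the annotation is not given in the sources used here. The authors deposited FPKM values per gene symbol, normalized to transcript length and to a size of each library that need not equal its mapped fragments. FPKM gives no counts, so no count model and no counting interval were used, and absolute depth is unknown.

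The rule for the 85 members uses symbols only, but it and all lists were chosen with earlier results of these data known. Genes with at least 1 FPKM in at least 2 libraries were tested with limma (version 3.58.1; lmFit, eBayes with a variance trend) on log2(FPKM + 1) over all genes. The code was tested on simulated data. Lengths and GC content came from GENCODE M21 (GRCm38), and the correction used natural splines with 4 degrees of freedom each for the log10 length of the longest protein-coding transcript and for GC. Named were the called members, the 2 most abundant and the most changed member of each complex, all of complex II, the isoform sets, and at most 4 called genes per list and direction. Other genes were named after their values were seen. Reads of 28 members can match a transcript of another gene at 97% identity over the length of a read (BLAST), and 29 overlap a gene on the other strand. Alternatives varied the pseudocount, filter, scaling, variance prior, thresholds, replicate block, length correction and each library.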

Additional observations from a re-analysis of the deposited data

How the results depend on the processing

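Direction and call held for all 36 named genes tested with a pseudocount of 0.1. They held for 17 under TPM (10 lost the call, 7 turned direction and 2 gained it) and for 25 under the length and GC correction. Without either 10p-HFSC library, 2 turned direction in each case. Median-of-ratios scaling also left all 36 as they were, but its library factors were only 1.00027 to 1.01115. The deposited values were thus already close to that scale, and this setting cannot show whether the calls depend on scaling. Among the calls lost under TPM were those of Higd2a, Ndufaf3, Sdhaf3, Tfb2m, Peo1, Lrpprc and Pdp1. Leaving out each library in turn gave 35 to 1936 genes called higher, 140 to 1875 called lower, and 0 to 35 members called higher, with 0 members and 35 or 36 genes called higher without 10p-HFSC replicate 1 or 2 (2 and 4 members at an unadjusted p under 0.05), and 35 members without 48p-HFSC replicate 1. The lone library of a group is then assumed to vary like the other group. In these fits the median log2 difference of the members ranged from 0.18 to 1.13, of complex I from 0.30 to 1.17, of complex IV from 0.44 to 1.66, of complex II from -0.17 to 0.48, of complex III from -0.31 to 0.84 and of complex V from 0.10 to 0.80, all lowest without 48p-HFSC replicate 2. Single genes turned direction as well: Atp5g1 ranged from -0.54 to 0.59, Atp5g3 from -0.33 to 0.041, Atp5k from -0.00097 to 1.32, Cox4i1 from -0.18 to 1.12, Cox7a2l from -0.15 to 0.89, Sdhb from -0.16 to 0.55, Sdhc from -0.18 to 0.58, Sdhd from -0.43 to 0.28 and Uqcr11 from -0.31 to 1.05.

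Rescaling the libraries to equal FPKM sums (TPM) moved the median of all genes to -0.56, and values under it are read against that shift. It gave 623 genes called higher and 812 lower, as compared to 1189 and 1008. Called higher were 6 members (7.5%, as compared to 5.65% of all genes), 2 of them among the 5 called as deposited. The member median was then 0.075, and those of complexes I, II, III and V 0.18, -0.39, -0.22 and -0.094. Atp5g1 turned to -0.56, Cox4i1 to -0.12, Cox7a2l to -0.21, Sdha to -0.32, Sdhb to -0.39, Sdhc to -0.38 and Uqcr11 to -0.22. Under quantile normalization 7 members (8.75%) were called higher, as compared to 11.7% of all genes, and the median was 0.42 for complex I, -0.25 for complex III, 0.33 for complex IV and -0.082 for complex V. There Atp5g1 was at -0.47, Atp5k at -0.082, Cox4i1 at -0.14, Cox7a2l at -0.20, Sdhb at -0.10, Sdhc at -0.11 and Uqcr11 at -0.31. The cause was not tested.

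With no filter on low values, 816 genes were called higher and 637 lower among 16679 genes, and 0 of 83 members in either direction (16 at an unadjusted p under 0.05), and a mean of at least 1 FPKM as the filter gave 3 members higher, as compared to 9.87% of all genes. At an adjusted p under 0.1, 13 members (16.3%) were called higher, as compared to 13.2% of all genes. Under the length and GC correction the median of complex III was -0.24, and Atp5k was at -0.16, Cox4i1 at -0.20, Cox7a2l at -0.041, Sdhb at -0.33 and Uqcr11 at -0.41. With the median in place of the longest transcript length, a choice made after seeing the data, the member median was 0.38. There 4 members were called higher (5.0%, as compared to 12.1% of all genes), and Sdhb was at -0.093, Sdhc at -0.021 and Uqcr11 at -0.10. The longest transcript overstates the usual length of some members, such as Ndufb2 and Atp5g1.

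The labels number the replicates but do not say that equal numbers share an origin, and with 2 pairs the numbers are not taken to pair the samples. Deviations of same-numbered libraries correlated at 0.41 over all genes and 0.58 over members. The replicate block raised the members called higher to 17 (21.3%, as compared to 14.6% of all genes), with 1613 genes higher and 1497 lower. With the length and GC correction it gave 7 members higher (8.75%, as compared to 13.9% of all genes). It gave 1 member lower, Ndufs5, with 1339 of 10959 genes lower. The differences were the same as under the correction without the block (complex III -0.24, Atp5k -0.16, Cox4i1 -0.20, Cox7a2l -0.041, Sdhb -0.33, Uqcr11 -0.41). Absolute depth is unknown, and 2 libraries a group limit every test.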
